A study of Mus musculus with 12 samples.

Results

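Proteasome genes were taken as all genes on the array whose symbol begins with Psma, Psmb, Psmc, Psmd, Psme, Psmf or Psmg followed by a digit, which gave 50 of 19938 measured genes. Psmc3ip and Psme3ip1 match by symbol only and are named for a partner protein, so the results cover the other 48 genes. These are 7 subunits of the alpha ring, 4 non-catalytic and 3 standard catalytic subunits of the beta ring, the 3 inducible catalytic subunits Psmb8, Psmb9 and Psmb10, the testis subunit Psma8 and the thymus subunit Psmb11, 6 ATPases and 11 non-ATPase subunits of the regulatory particle, 4 activator genes, the inhibitor Psmf1 and 7 assembly factors. The rule used no measured value. Each gene is given by its brightest probe set, and 45 of the 50 lay at or above 6.11, the median log2 signal of all genes.

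The proteasome is the large protease that degrades ubiquitin-tagged proteins. Its barrel-shaped core particle has outer rings of alpha subunits that gate the entry and inner rings of beta subunits, of which Psmb5, Psmb6 and Psmb7 carry the active sites. The regulatory particle caps the core, binds ubiquitin chains, unfolds the substrate with its ring of ATPases and feeds it into the barrel. Under interferon, and constitutively in leukocytes, newly made cores carry Psmb8, Psmb9 and Psmb10 in place of Psmb5, Psmb6 and Psmb7. This immunoproteasome is best known for cutting peptides for presentation on MHC class I, and it is often capped by the PA28 activator made of Psme1 and Psme2. In skeletal muscle the ubiquitin-proteasome pathway is known above all for breaking down contractile proteins.

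Diaphragm and gastrocnemius muscle were compared between wild type (WT) mice and mice lacking Cox6a2 (KO), the striated muscle subunit of cytochrome c oxidase. All mice were male, labelled as C57Bl6 and 10 to 12 weeks old. The study's methods name the controls as C57BL/6J mice from a supplier and do not describe them as littermates. The deletion was global, so that every tissue lacked the gene. The 4 groups were WT gastrocnemius, KO gastrocnemius, WT diaphragm and KO diaphragm, with 3 biological replicates and 1 array each. Signals are log2 values, so that a difference of 1 is a doubling. Levels were compared between arrays and not between genes, since probe sets differ in brightness. A gene was called higher or lower at an adjusted p under 0.05, from limma over all 19938 genes with Benjamini-Hochberg adjustment.

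Cox6a2 lay between 11.65 and 12.1 on the 6 WT arrays and between 6.71 and 7.18 on the 6 KO arrays. The 3 arrays whose label reads WT diaphragm did not carry the position genes of a diaphragm. Hoxc10, a homeobox gene of the hindlimb, had a mean log2 signal of 8.68 on them, 8.44 in WT gastrocnemius, 8.53 in KO gastrocnemius and 4.18 in KO diaphragm. Upk3b, which marks the mesothelial lining of the diaphragm, was at 5.41, 5.49, 5.16 and 9.31 in the same order. They are therefore called the WT-labelled diaphragm arrays here, and every direction given for KO against WT diaphragm is drawn from them. Differences given as in diaphragm are those of KO diaphragm against these arrays, and genotype and muscle cannot be told apart in them. The comparison of KO diaphragm with KO gastrocnemius holds none of these arrays, and its values are given beside the others. Both share the KO diaphragm arrays, so they are not independent of each other.

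In diaphragm, KO mice had a higher signal than the WT-labelled diaphragm arrays for 6 of the 48 proteasome genes and a lower signal for 13. The background was 16.3% of all genes called higher and 11.2% called lower. The 6 higher genes were the inducible catalytic subunits Psmb8, Psmb9 and Psmb10, the PA28 genes Psme1 and Psme2, and the assembly factor Psmd10. Of the 13 lower genes, 11 belong to the regulatory particle, 1 to the alpha ring (Psma3), and 1 is Psme4, which encodes the large single-chain activator PA200. The median log2 difference of the 48 genes was -0.12 against -0.04 over all genes, and that of the 17 regulatory particle genes was -0.36 against -0.02 for the 14 standard core subunits. In such whole-muscle RNA, more or fewer cells of a type and more or less RNA per cell cannot be told apart.

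**Figure D1:**
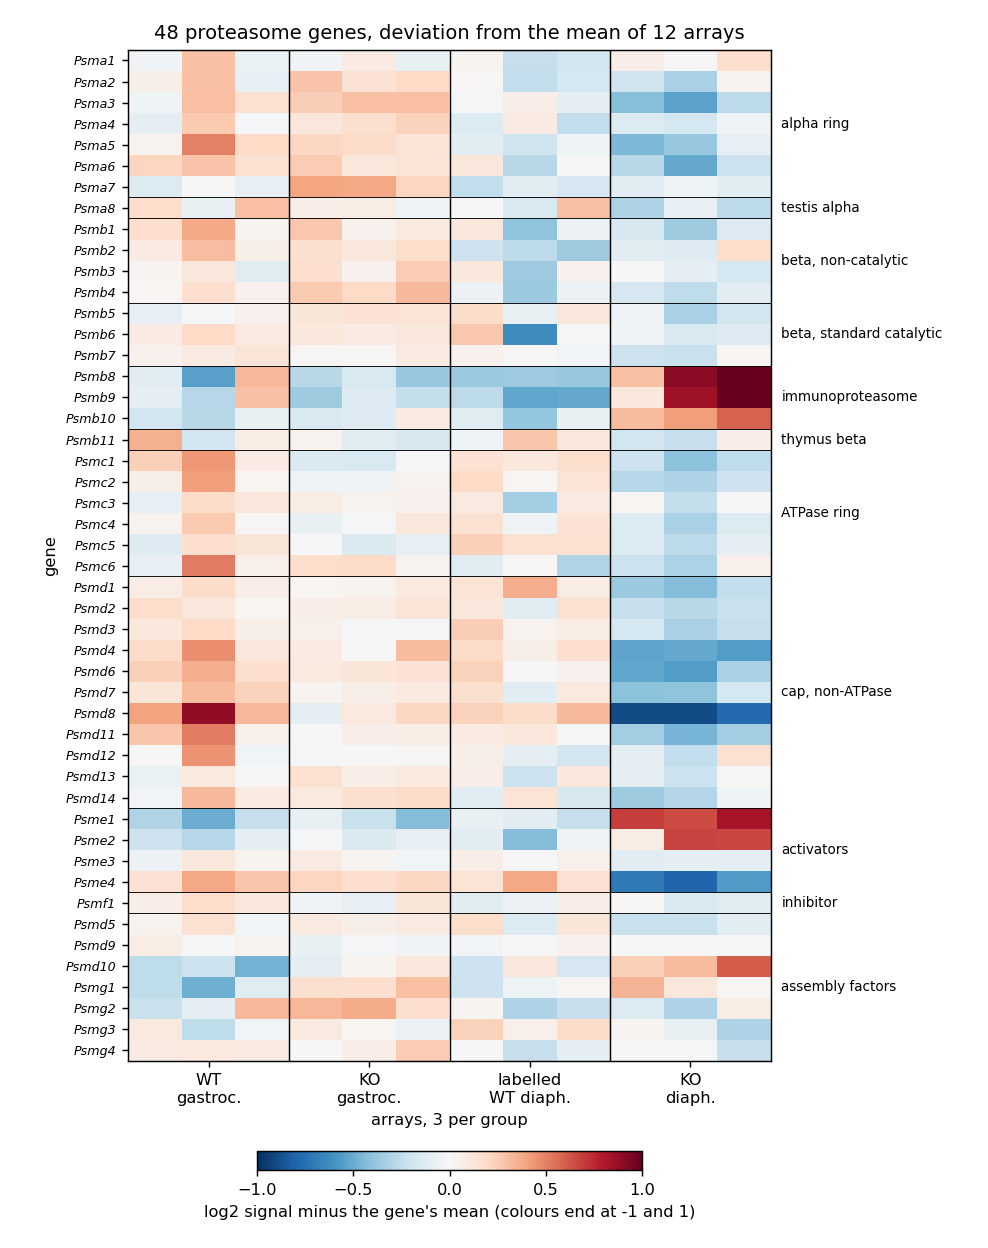
Signal of the 48 proteasome genes on the 12 arrays, as the deviation of each log2 signal from that gene's mean over all arrays, with genes in rows by class and arrays in columns by group (replicates 1 to 3 from left to right). The KO diaphragm columns stand apart, red for Psmb8, Psmb9, Psmb10, Psme1 and Psme2 and blue for Psme4 and most regulatory particle genes, and the high column in WT gastrocnemius is replicate 2.

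Psmb8, which replaces the standard subunit with chymotrypsin-like activity, was at 6.94, 7.55 and 7.69 in KO diaphragm. It was at 6.28, 6.29 and 6.27 on the WT-labelled diaphragm arrays, at 6.55, 6.11 and 6.98 in WT gastrocnemius and at 6.38, 6.50 and 6.28 in KO gastrocnemius. All 3 KO diaphragm arrays lay above the WT-labelled diaphragm arrays and those of KO gastrocnemius, while the lowest of them, replicate 1, lay just under the highest WT gastrocnemius array. The log2 difference in diaphragm was 1.11 (SE 0.20, adjusted p = 0.000745), a 2.16-fold higher signal. Against KO gastrocnemius it was 1.01 (adjusted p = 0.00139).

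Psmb9, which replaces the subunit with caspase-like activity, followed the same order of groups. It was at 7.58, 8.33 and 8.62 in KO diaphragm, at 7.22, 6.96 and 6.97 on the WT-labelled diaphragm arrays, at 7.39, 7.19 and 7.78 in WT gastrocnemius and at 7.12, 7.35 and 7.25 in KO gastrocnemius. The difference in diaphragm was 1.13 (SE 0.21, adjusted p = 0.00103). Replicate 1 was again the lowest array of KO diaphragm and lay under replicate 3 of WT gastrocnemius, but above all arrays of the other groups. Against KO gastrocnemius the difference was 0.94 (adjusted p = 0.00362).

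Psmb10, which replaces the subunit with trypsin-like activity, rose by less. It was at 7.53, 7.64 and 7.81 in KO diaphragm, at 7.10, 6.83 and 7.14 on the WT-labelled diaphragm arrays, at 7.02, 6.94 and 7.14 in WT gastrocnemius and at 7.06, 7.09 and 7.30 in KO gastrocnemius. No array of another group reached the lowest of KO diaphragm. The difference in diaphragm was 0.64 (SE 0.11, adjusted p = 0.000673), and that against KO gastrocnemius was 0.51 (adjusted p = 0.00316).

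The standard counterparts did not rise with them. Psmb5 was at 8.83, 8.56 and 8.69 in KO diaphragm and at 9.07, 8.81 and 8.99 on the WT-labelled diaphragm arrays, a difference of -0.26 that did not pass (adjusted p = 0.0559). Under 6 of the other settings it did pass, among them the fit without WT-labelled diaphragm replicate 2 (-0.34, adjusted p = 0.025). Against the 3 KO gastrocnemius arrays, at 9.0, 9.02 and 9.02, Psmb5 was lower by 0.32 on the log2 scale (adjusted p = 0.0207), a call lost without KO diaphragm replicate 2 (adjusted p = 0.0995) or KO gastrocnemius replicate 2 or 3. In WT gastrocnemius Psmb5 was at 8.80, 8.86 and 8.93, a range that holds KO diaphragm replicate 1.

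Psmb6 was at 9.94, 9.83 and 9.84 in KO diaphragm and between 10.06 and 10.08 in KO gastrocnemius, and at 10.24, 9.35 and 9.99 on the WT-labelled diaphragm arrays, where replicate 2 stood well below the others. Its difference in diaphragm was 0.01 with a 95% interval from -0.34 to 0.36. Psmb7 was at 10.82, 10.80 and 11.05 in KO diaphragm and between 11 and 11.07 on the WT-labelled diaphragm arrays, a difference of -0.14 with an interval from -0.33 to 0.04. In gastrocnemius Psmb5, Psmb6 and Psmb7 differed between genotypes by 0.15, -0.02 and -0.05, none of them called.

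**Figure D2:**
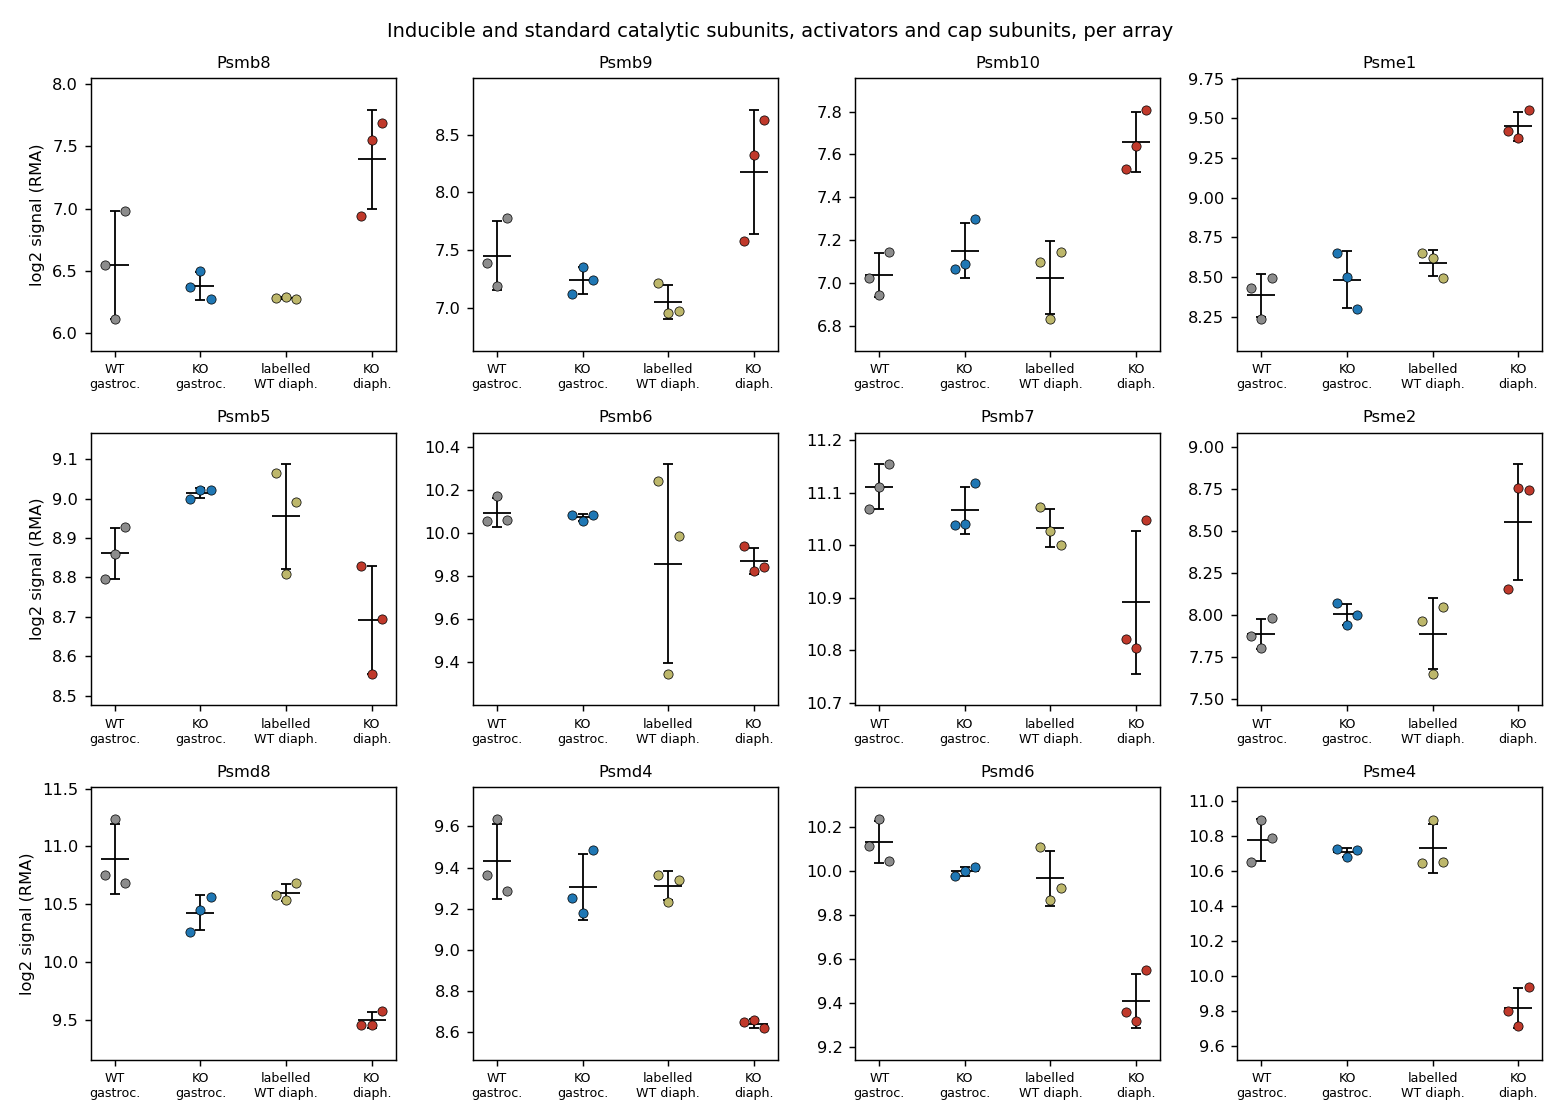
log2 signal of 12 proteasome genes on each array (points), with the mean and SD of the 3 arrays of a group (bars), on a separate vertical scale for each gene. In KO diaphragm Psmb8, Psmb9, Psmb10, Psme1 and Psme2 are high, and Psmd8, Psmd4, Psmd6 and Psme4 lie below every array of the other groups, while Psmb6 shows the low WT-labelled diaphragm array of replicate 2.

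Taking each inducible subunit over its standard counterpart within an array removes any scaling that the array's genes share. Only shifts of such a ratio between arrays can be read, since the 2 probe sets differ in brightness. The log2 ratio of Psmb8 over Psmb5 was -1.89, -1.0 and -1.01 in KO diaphragm and between -2.78 and -2.52 on the WT-labelled diaphragm arrays, a difference of 1.37 or 2.59-fold. That of Psmb9 over Psmb6 differed by 1.12, with the KO diaphragm array lowest at -2.36 lying close to WT-labelled diaphragm replicate 2 at -2.39. That of Psmb10 over Psmb7 was between -3.29 and -3.17 in KO diaphragm and between -4.20 and -3.86 on the WT-labelled diaphragm arrays, a difference of 0.78.

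Against KO gastrocnemius the 3 ratios were higher in KO diaphragm by 1.33, 1.14 and 0.68, again with no overlap between arrays. Each of these 6 differences had a two-sided exact permutation p of 0.1, the smallest that 3 arrays against 3 can give, and 0.171 after adjustment over the 12 ratios compared. In gastrocnemius the KO minus WT differences were -0.32 for Psmb8 over Psmb5 (exact p = 0.4), -0.19 for Psmb9 over Psmb6 (exact p = 0.5) and 0.16 for Psmb10 over Psmb7 (exact p = 0.1). The WT-labelled diaphragm arrays differed from WT gastrocnemius by -0.36, -0.17 and 0.07 in the same order. WT gastrocnemius replicate 3 reached the level of KO diaphragm replicate 1 for Psmb9 over Psmb6, at -2.28 against -2.36. For Psmb8 over Psmb5 it lay just under that array, at -1.94 against -1.89.

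**Figure D3:**
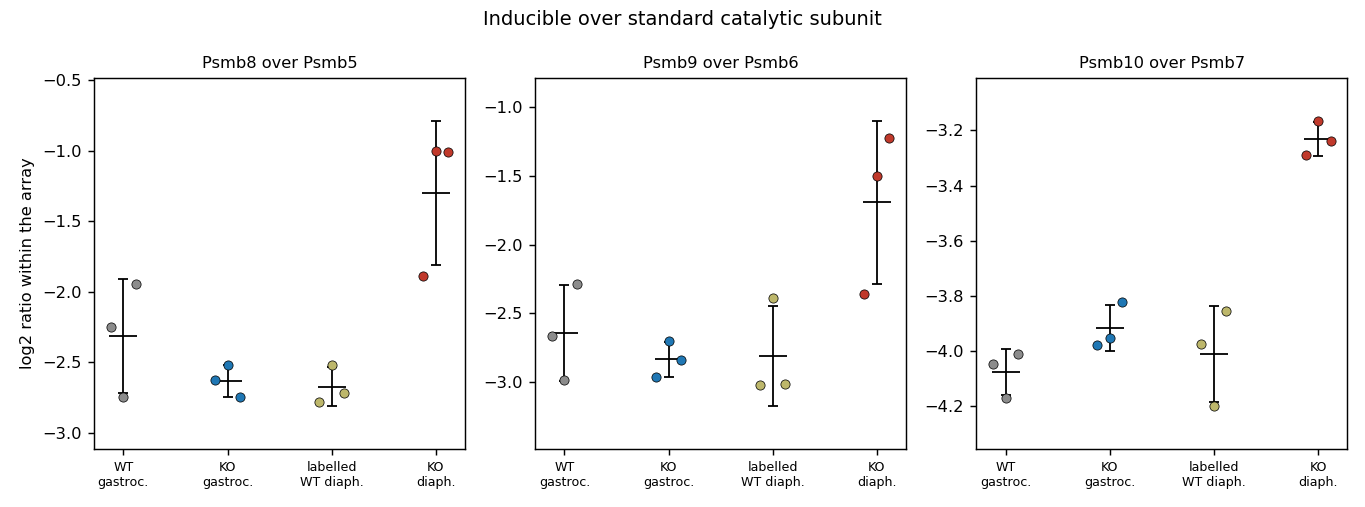
log2 ratio of each inducible over its standard catalytic subunit within each array (points), with the group mean and SD (bars). For all 3 pairs the KO diaphragm arrays lie above those of KO gastrocnemius and the WT-labelled diaphragm arrays, and KO diaphragm replicate 1 is the lowest of its group. For Psmb9 over Psmb6, WT gastrocnemius replicate 3 lies above KO diaphragm replicate 1.

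Psme1 and Psme2 encode the alpha and beta chains of PA28, which opens the core without ATP. Psme1 was at 9.42, 9.38 and 9.55 in KO diaphragm, at 8.65, 8.62 and 8.49 on the WT-labelled diaphragm arrays, at 8.43, 8.23 and 8.49 in WT gastrocnemius and at 8.65, 8.5 and 8.30 in KO gastrocnemius. Its KO diaphragm arrays agreed closely and lay far from all others, with a difference of 0.86 in diaphragm (SE 0.11, adjusted p = 3.79e-05) and 0.97 against KO gastrocnemius (adjusted p = 1.26e-05). Psme2 was at 8.15, 8.76 and 8.75 in KO diaphragm, at 7.97, 7.65 and 8.05 on the WT-labelled diaphragm arrays, at 7.88, 7.80 and 7.98 in WT gastrocnemius and at 8.07, 7.94 and 8.0 in KO gastrocnemius. Its difference was 0.66 in diaphragm (adjusted p = 0.00378) and 0.55 against KO gastrocnemius (adjusted p = 0.0116). The latter call was lost without KO diaphragm replicate 2 (adjusted p = 0.0604) or replicate 3 (adjusted p = 0.054).

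The other activators went another way. Psme3, which forms the nuclear PA28 gamma ring, differed by -0.14 in diaphragm and was not called. Psme4 was at 9.80, 9.71 and 9.94 in KO diaphragm, at 10.65, 10.89 and 10.65 on the WT-labelled diaphragm arrays, at 10.65, 10.89 and 10.79 in WT gastrocnemius and at 10.72, 10.68 and 10.72 in KO gastrocnemius. Its difference was -0.91 in diaphragm (SE 0.10, adjusted p = 1.23e-05), a signal of 0.532 times that on the WT-labelled diaphragm arrays, and -0.89 against KO gastrocnemius (adjusted p = 1.36e-05). The inhibitor Psmf1 differed by -0.05 and -0.09 in these comparisons and was called in neither.

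Promoters are shown for called members that the results turn on, Psmb8, Psmb9 and Psme1 among the higher and Psmd8, Psme4 and Psmd4 among the lower genes, which had the largest differences in each direction in diaphragm. The sequences are those of RefSeq on GRCm38.p6, 250 bases before to 50 bases after the gene start, read along the gene's strand. They lie at chr17:34197945-34198244 (plus strand) for Psmb8, chr17:34187281-34187580 (minus) for Psmb9, chr14:55578244-55578543 (plus) for Psme1, chr7:29180624-29180923 (minus) for Psmd8, chr3:95042565-95042864 (minus) for Psmd4 and chr11:30771525-30771824 (plus) for Psme4. Capitals mark matches on either strand to the antioxidant response element core TGACNNNGC, the interferon regulatory factor element (a pair of GAAA repeats with any 2 bases between), the gamma-activated sequence TTCNNNGAA and the CCAAT box CCAAT, where N is any base.
Psmb8: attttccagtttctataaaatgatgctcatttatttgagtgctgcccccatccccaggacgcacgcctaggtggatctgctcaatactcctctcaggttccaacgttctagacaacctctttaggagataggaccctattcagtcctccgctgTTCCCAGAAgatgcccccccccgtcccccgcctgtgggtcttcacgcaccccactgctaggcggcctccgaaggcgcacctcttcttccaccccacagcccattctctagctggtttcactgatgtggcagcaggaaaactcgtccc
Psmb9: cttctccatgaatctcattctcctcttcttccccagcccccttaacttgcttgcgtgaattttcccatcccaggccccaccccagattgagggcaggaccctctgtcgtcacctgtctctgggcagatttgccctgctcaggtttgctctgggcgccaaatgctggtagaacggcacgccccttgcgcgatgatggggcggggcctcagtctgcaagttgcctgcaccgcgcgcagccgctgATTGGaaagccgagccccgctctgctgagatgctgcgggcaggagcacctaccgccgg
Psme1: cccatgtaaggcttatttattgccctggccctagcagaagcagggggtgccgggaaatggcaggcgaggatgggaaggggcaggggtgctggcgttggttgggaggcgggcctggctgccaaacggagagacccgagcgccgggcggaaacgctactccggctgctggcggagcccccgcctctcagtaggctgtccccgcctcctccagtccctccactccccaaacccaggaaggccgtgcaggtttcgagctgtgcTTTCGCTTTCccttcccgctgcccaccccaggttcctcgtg
Psmd8: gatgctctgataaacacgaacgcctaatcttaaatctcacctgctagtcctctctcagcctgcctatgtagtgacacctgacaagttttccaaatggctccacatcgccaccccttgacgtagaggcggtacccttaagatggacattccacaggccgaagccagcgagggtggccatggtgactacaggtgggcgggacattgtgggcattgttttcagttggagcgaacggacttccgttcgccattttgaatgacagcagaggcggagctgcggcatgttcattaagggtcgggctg
Psmd4: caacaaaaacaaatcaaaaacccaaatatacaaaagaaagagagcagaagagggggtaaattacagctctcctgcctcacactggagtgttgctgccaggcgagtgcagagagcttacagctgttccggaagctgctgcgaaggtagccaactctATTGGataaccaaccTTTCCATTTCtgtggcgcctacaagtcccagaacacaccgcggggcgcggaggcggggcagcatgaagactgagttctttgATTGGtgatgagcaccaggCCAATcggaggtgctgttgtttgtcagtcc
Psme4: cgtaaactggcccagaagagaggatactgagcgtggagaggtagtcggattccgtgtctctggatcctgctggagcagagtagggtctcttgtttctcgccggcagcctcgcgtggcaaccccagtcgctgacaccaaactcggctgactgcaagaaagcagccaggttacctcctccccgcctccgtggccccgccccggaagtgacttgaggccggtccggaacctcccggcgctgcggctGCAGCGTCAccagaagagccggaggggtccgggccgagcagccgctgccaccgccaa

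The Psmb8 window held 1 gamma-activated sequence, 97 bases before the gene start, and the Psme1 window 1 interferon regulatory factor element that begins 9 bases after it. The Psmb9 window held 1 CCAAT box and shared 275 bases with that of Tap1, the peptide transporter gene on the other strand, whose start lies 226 bases away. Psmd4 had 3 CCAAT boxes and 1 interferon regulatory factor element, and Psme4 had 1 antioxidant response element core. The Psmd8 window held no match to these motifs, and neither did the Psmb10 window or those of the 2 starts of Psme2, which are not printed. Over the 40 members with a promoter entry, 6 held the antioxidant response element core, 5 the interferon regulatory factor element, 3 the gamma-activated sequence and 14 the CCAAT box. Over all 27025 genes with a promoter entry these motifs were found in 14%, 3.99%, 9.55% and 41.1%. No motif overlapped another in the windows printed. Psma8, Psmb1, Psmb2, Psmb7, Psmc3, Psmd3, Psmd7 and Psmg2 had no entry.

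The regulatory particle was the class with the most genes called lower in KO diaphragm. Of its 11 non-ATPase subunits, 8 were lower and none was higher than on the WT-labelled diaphragm arrays, and of its 6 ATPases, Psmc1, Psmc2 and Psmc5 were lower. Over all genes 11.2% were called lower and 16.3% higher. Psmd8, a lid subunit, was at 9.46, 9.46 and 9.57 in KO diaphragm, at 10.58, 10.54 and 10.68 on the WT-labelled diaphragm arrays, at 10.76, 11.24 and 10.68 in WT gastrocnemius and at 10.26, 10.45 and 10.56 in KO gastrocnemius. Its KO diaphragm arrays lay below all 9 others, by -1.10 in diaphragm (SE 0.13, adjusted p = 2.41e-05) and by -0.93 against KO gastrocnemius (adjusted p = 9.58e-05). Psmd8 was the furthest moved gene of the class in both comparisons.

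Psmd4, a receptor for ubiquitin chains, was at 8.65, 8.66 and 8.62 in KO diaphragm, at 9.36, 9.23 and 9.34 on the WT-labelled diaphragm arrays, at 9.36, 9.64 and 9.29 in WT gastrocnemius and at 9.25, 9.18 and 9.48 in KO gastrocnemius. It was lower by -0.67 in diaphragm (adjusted p = 0.000309) and by -0.66 against KO gastrocnemius (adjusted p = 0.000308). The lid subunit Psmd6 differed by -0.56 and -0.59, the large scaffold subunit Psmd1 by -0.54 and -0.40, and the lid subunit Psmd11 by -0.44 and -0.43, all called in both comparisons. The ATPase Psmc1 was called in diaphragm (-0.44, adjusted p = 0.00475) but not against KO gastrocnemius (-0.19, adjusted p = 0.183). A second, dimmer probe set of Psmc1 differed by -0.37 and -0.31 in these comparisons. Psmd12 and Psmd13, also of the lid, were called in neither, at 0.01 and -0.09 in diaphragm. The mean log2 signal of the 17 genes was 9.42 ± 0.09 in KO diaphragm, 9.78 ± 0.05 on the WT-labelled diaphragm arrays, 9.88 ± 0.15 in WT gastrocnemius and 9.76 ± 0.03 in KO gastrocnemius (SD, n = 3).

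In the standard core, the comparison with the WT-labelled diaphragm arrays and that between the KO muscles differed in their counts. Of its 14 subunits, 1 was lower and none was higher in KO diaphragm than on the WT-labelled diaphragm arrays. The background was 11.2% of all genes lower and 16.3% higher, so the share of lower subunits did not exceed it. Against KO gastrocnemius 7 were lower and none was higher, beside 11.2% and 17.7% of all genes. The gene lower in both was Psma3, at -0.39 (adjusted p = 0.0111) and -0.69 (adjusted p = 0.00016), and its first call was lost without KO diaphragm replicate 2 (adjusted p = 0.0558). Psma3 has 3 probe sets, whose differences in diaphragm ranged from -0.41 to -0.37. Against KO gastrocnemius, Psma6 (-0.50), Psma5 (-0.48), Psmb4 (-0.44), Psma7 (-0.41), Psma2 (-0.38) and Psmb5 (-0.32) were lower as well. The mean of the 14 genes was 9.26 ± 0.09 in KO diaphragm and 9.33 ± 0.11 on the WT-labelled diaphragm arrays (SD, n = 3). It was 9.52 ± 0.11 in WT gastrocnemius and 9.59 ± 0.02 in KO gastrocnemius. WT-labelled diaphragm replicate 2 was the lowest of its group at 9.21, and without it the median difference of the 14 genes in diaphragm was -0.15 in place of -0.02.

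**Figure D4:**
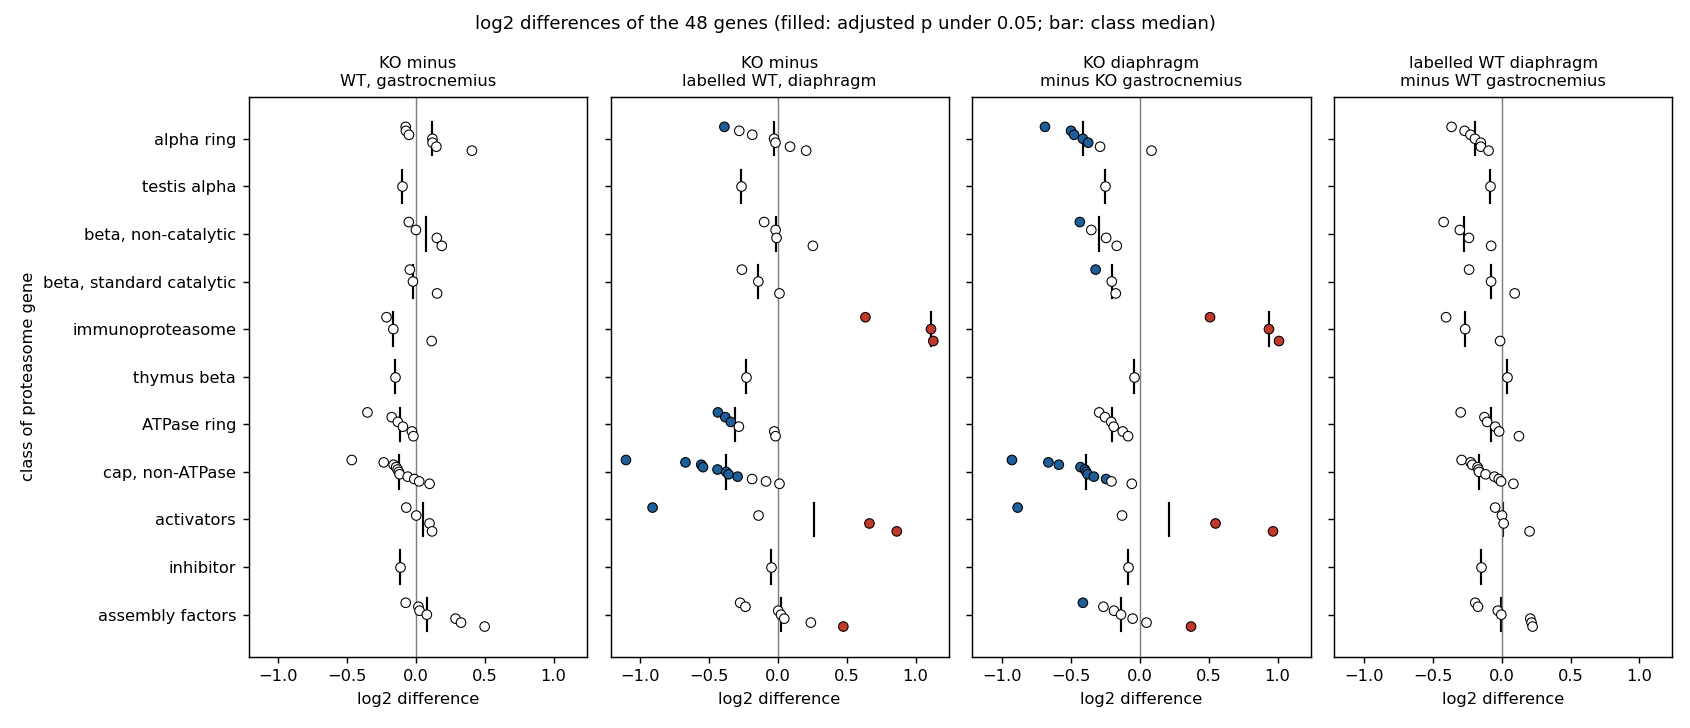
log2 differences of the 48 genes by class in 4 comparisons (1 point per gene, filled red or blue where called higher or lower, white where not called, with a vertical bar at the class median). Filled points appear only in the comparisons that hold KO diaphragm, where the immunoproteasome genes lie between 0.51 and 1.13 and the regulatory particle genes lie mostly below 0.

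Between the KO muscles, 6 of the 48 genes were higher and 18 were lower in diaphragm than in gastrocnemius, beside 17.7% and 11.2% of all genes. The 6 higher genes were those called higher against the WT-labelled diaphragm arrays. The median of the 48 genes was -0.25, and that of all genes 0.02. Psmd10, an assembly chaperone of the ATPase ring also known as gankyrin, was at 7.59, 7.67 and 7.95 in KO diaphragm, at 7.14, 7.46 and 7.18 on the WT-labelled diaphragm arrays and at 7.26, 7.37 and 7.46 in KO gastrocnemius. Its differences were 0.47 (adjusted p = 0.00846) and 0.37 (adjusted p = 0.0307), the latter lost when arrays were centred on their medians (adjusted p = 0.127) or quantile normalized (adjusted p = 0.0808), and without KO diaphragm replicate 3 or KO gastrocnemius replicate 1 or 2. In WT gastrocnemius Psmd10 was at 7.10, 7.13 and 6.88. All KO gastrocnemius arrays lay above these, by a limma difference of 0.33 that was not called (adjusted p = 0.202). Another assembly factor, Psmg2, was lower by 0.41 in KO diaphragm than in KO gastrocnemius. Centring on the array medians moved the median of all genes in this comparison from 0.02 to -0.11 and raised the lower calls to 31. Calls over all genes were not counted with this centring.

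In gastrocnemius, no proteasome gene was called in KO against WT mice with limma, where 0.406% of all genes were called higher and 0.186% lower. Without adjustment 3 of the 48 passed upwards and 3 downwards (p under 0.05), beside 1617 and 1662 of all 19938 genes. The medians were -0.04 for the 48 genes and -0.01 for all genes, or 0.02 and 0.04 with median centring. The nearest were the alpha subunit Psma7 and the assembly chaperone Psmg1. Psma7 was at 9.29, 9.28 and 9.11 in KO gastrocnemius and at 8.76, 8.89 and 8.81 in WT gastrocnemius, a difference of 0.41 (adjusted p = 0.0518). Psmg1 was at 7.51, 7.51 and 7.65 in KO and at 7.09, 6.86 and 7.23 in WT gastrocnemius, a difference of 0.50 (adjusted p = 0.0667). For both genes the groups did not overlap. Of the 48 genes, 5 lay above and 6 below without overlap, beside 2443 and 2188 of all 19938 genes. Psma7 and Psmg1 both passed when arrays were centred on their medians (adjusted p = 0.0273 and 0.0331). They also passed when genes under the median signal were left out (adjusted p = 0.0285 and 0.048).

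Psmd8 (-0.47, adjusted p = 0.116) and Psmc1 (-0.35, adjusted p = 0.119) were the next in gastrocnemius. The dimmer probe set of Psmc1 differed by -0.16 there. Of the 17 regulatory particle genes, 15 had a negative difference there, with a median of -0.13, but none was called. WT gastrocnemius replicate 2 had a mean of 10.06 over these 17 genes against 9.80 for each of the other WT gastrocnemius arrays, and without it the median difference was -0.02. Psmb8, Psmb9 and Psmb10 differed by -0.17, -0.21 and 0.11 with 95% intervals from -0.59 to 0.26, from -0.66 to 0.23 and from -0.13 to 0.35.

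The WT-labelled diaphragm arrays and those of WT gastrocnemius likewise showed no called difference in the 48 genes with limma, where 0.296% of all genes were called higher and 0.166% lower. Without adjustment 6 passed downwards and none upwards (p under 0.05), beside 887 and 1690 of all 19938 genes. Psmb2, a non-catalytic beta subunit, was nearest, at 8.78, 8.73 and 8.64 on the WT-labelled diaphragm arrays and at 9.07, 9.30 and 9.05 in WT gastrocnemius (-0.42, adjusted p = 0.0944). It passed after quantile normalization (adjusted p = 0.0416). Psma5, Psma6 and Psmb4 were next, at -0.36, -0.27 and -0.24, and were not called. The median was -0.11 for the 48 genes and 0.02 for all genes.

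The difference between the KO minus WT differences of the 2 muscles was tested with the interaction term, by which 8.76% of all genes were called higher in diaphragm and 6.07% lower. Of the 48 genes, 4 were called higher and 5 lower. The higher ones were Psmb9 (1.34, adjusted p = 0.00664), Psmb8 (1.28, adjusted p = 0.00637), Psme1 (0.77, adjusted p = 0.00334) and Psmb10 (0.52, adjusted p = 0.0385). The lower ones were Psme4 (-0.84, adjusted p = 0.000984), Psmd8 (-0.64, adjusted p = 0.0311), Psmd4 (-0.55, adjusted p = 0.0249), Psma3 (-0.54, adjusted p = 0.0221) and Psmd1 (-0.48, adjusted p = 0.0251). Psmb8, Psmb9, Psme1 and Psme4 kept their call without any 1 array. Psmb10, Psmd8, Psmd4, Psma3 and Psmd1 each lost it without some single array, and without WT gastrocnemius replicate 1 the lower calls fell from 5 to 1. They were 2 without WT gastrocnemius replicate 3, KO diaphragm replicate 2 or KO gastrocnemius replicate 3, and 3 without WT-labelled diaphragm replicate 1 or 3. Psmb10 also lost it with median centring (adjusted p = 0.108) and quantile normalization (adjusted p = 0.0599). Median centring moved the median of all genes to -0.13 here. The WT-labelled diaphragm arrays enter this test.

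Genes of antigen presentation and of the interferon response, which are often switched on together with the immunoproteasome, were read from a list of 16 measured genes. In KO diaphragm, 11 were higher and 1 was lower than on the WT-labelled diaphragm arrays, beside 16.3% and 11.2% of all genes. Against KO gastrocnemius 9 were higher and 1 was lower, beside 17.7% and 11.2%. The guanylate-binding protein gene Gbp3 differed by 2.41 in diaphragm, B2m, the light chain of MHC class I, by 1.98, and Tap1, the neighbour of Psmb9, by 1.17. In gastrocnemius none of the 16 was called. The mean of the list was 7.13, 7.42 and 8.26 in KO diaphragm and 6.60, 6.41 and 7.37 in WT gastrocnemius, so that replicate 3 stood above the others in both groups, and it was between 6.44 and 6.74 on the other 6 arrays. WT gastrocnemius replicate 3 was also the highest of its group for Psmb8, Psmb9 and Psmb10. The 5 genes whose signal followed the mean of Psmb8, Psmb9 and Psmb10 most closely over the 12 arrays were H2-Ab1 (Pearson r = 0.978), Plac8 (0.976), Ly6e (0.976), H2-Aa (0.976) and Parp12 (0.973). The 12 arrays share the step between KO diaphragm and the rest, which sets much of these values. Psme2 ranked 141 and Psme1 811 among the other genes by the same measure.

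Markers of other cell types were higher in the same arrays. All 8 leukocyte markers were called higher in KO diaphragm than on the WT-labelled diaphragm arrays, with a mean signal of the list between 7.53 and 8.15 against 6.07 to 6.31. In KO gastrocnemius the mean was between 5.89 and 6.15. Ptprc, the pan-leukocyte antigen, was at 7.18, 7.90 and 8.0 in KO diaphragm and between 5.04 and 5.84 on the other 9 arrays. Against the WT-labelled diaphragm arrays, where 16.3% of all genes were called higher, 9 of 10 macrophage markers and 6 of 7 B cell markers were higher. The counts were 4 of 8 for the dendritic cell and MHC class II genes and 2 of 7 for the T cell markers. They were 7 of 8 for the endothelial markers and 8 of 8 for the mesothelial markers. KO diaphragm replicate 1, the lowest of its group for Psmb8, Psmb9 and Psmb10, was also the lowest for the leukocyte, B cell, T cell, MHC class II and mesothelial lists, while for the macrophage list replicate 3 was the lowest, at 7.87 against 8.09 and 8.39. Their part in the results on the immunoproteasome and PA28 was not tested.

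Mean signals of the hindlimb position list were between 5.39 and 5.57 in KO diaphragm and between 6.68 and 6.87 on the other 9 arrays. Of the 12 skeletal muscle genes, KO diaphragm had 4 higher and 6 lower than the WT-labelled diaphragm arrays, beside 16.3% and 11.2% of all genes. The part of muscle type in the lower signal of the regulatory particle and Psme4 was not tested.

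**Figure D5:**
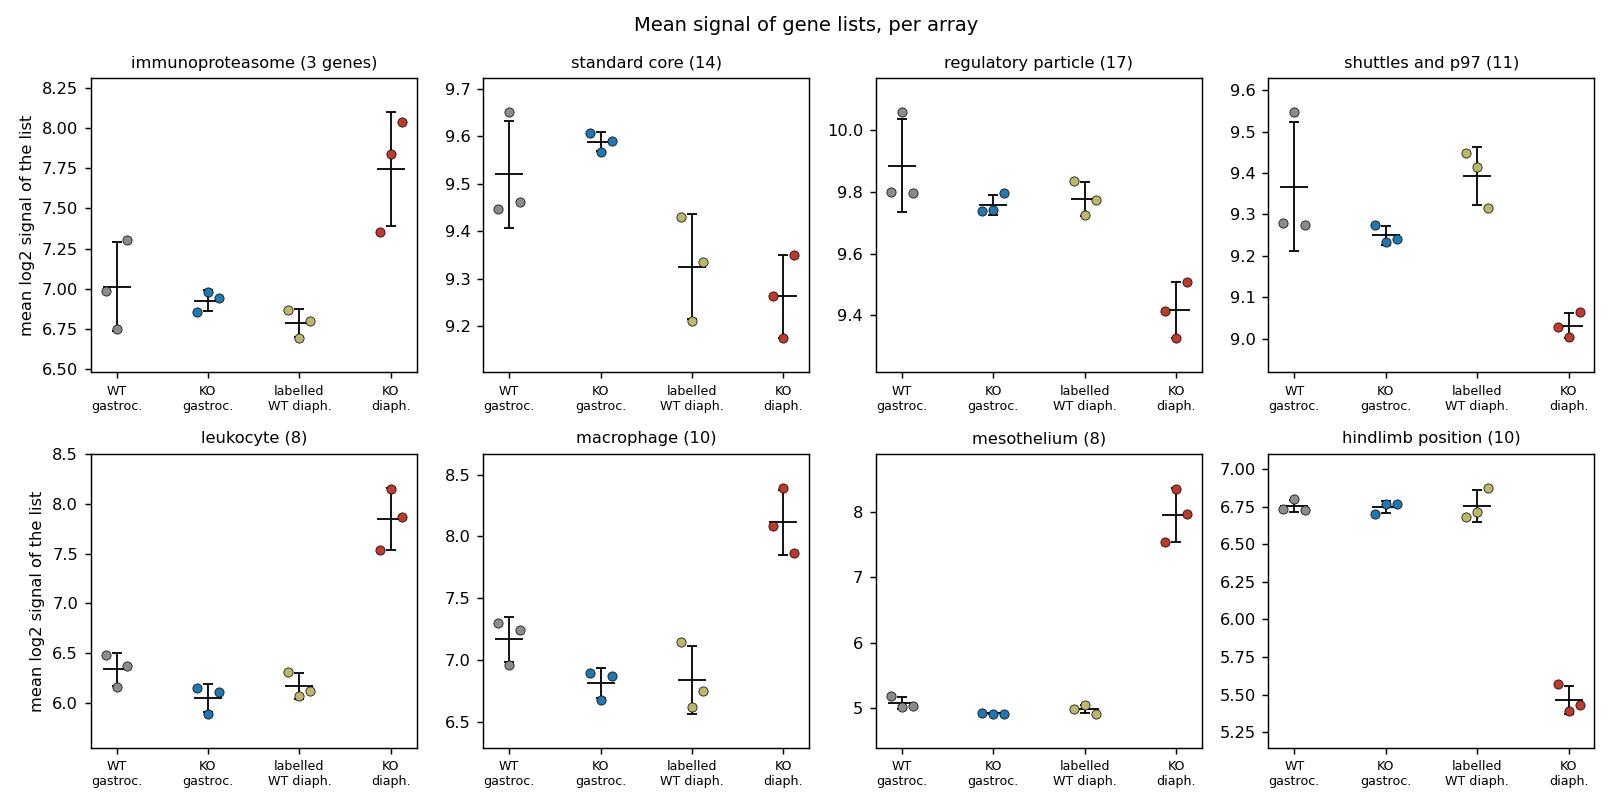
Mean log2 signal of 8 gene lists on each array (points), with the group mean and SD (bars), on a separate vertical scale for each list. In KO diaphragm the immunoproteasome, leukocyte, macrophage and mesothelium lists are high and the regulatory particle, shuttle and hindlimb lists are low, while the WT-labelled diaphragm arrays lie at the level of gastrocnemius for the hindlimb and mesothelium lists.

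Lists of genes around the proteasome are given with the same background, 16.3% of all genes higher and 11.2% lower in diaphragm. Against KO gastrocnemius the background was 17.7% higher and 11.2% lower. Of 11 ubiquitin shuttles and cofactors of the p97 segregase, 6 were lower and none was higher in KO diaphragm than on the WT-labelled diaphragm arrays, and 4 were lower than in KO gastrocnemius, where the other 7 were not called. The autophagy receptor Sqstm1 differed by -0.57 and -0.37 in the 2 comparisons, the shuttle Rad23b by -0.53 and -0.34, and the shuttle Ubqln4 by -0.49 and -0.33. Of 8 further proteasome-associated genes, 2 were lower in diaphragm, Ecpas (-0.50), a proteasome adaptor, and Txnl1 (-0.44), a thioredoxin bound to the cap, and none was higher. Against KO gastrocnemius 4 were lower, with Sem1, a small lid subunit, lower by 0.88.

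Of 7 measured ubiquitin, E1 and E2 genes, 1 was higher and 3 were lower in diaphragm. The E2 gene Ube2d1 was lower by 1.61 (adjusted p = 3.96e-07), and the second E1 gene Uba6 was higher by 0.45. Of 17 ubiquitin ligases studied in muscle, 2 were higher and 5 lower, with Fbxo30 at 0.84, Trim54 at -0.86 and Fbxo40 at -0.82, the share of higher genes not exceeding the background. Of 13 genes that regulate proteasome transcription, 2 were higher in diaphragm, Mafk (0.63) and Nfya (0.41), and 1 was lower, Mafg (-0.46), shares that do not exceed the background. Against KO gastrocnemius 5 of the 13 were higher and 2 were lower, beside 17.7% and 11.2% of all genes. The share of lower genes lay near its background. Nfe2l1, the factor known to raise proteasome genes when proteolysis falls short, differed by 0.10 in diaphragm and was not called. Its signal was 10.80, 10.83 and 11.03 in KO diaphragm and between 10.62 and 10.63 in KO gastrocnemius. No gene of these lists was called in gastrocnemius.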

How the data were processed

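RNA of 12 muscles was hybridized to mouse Gene ST arrays, 1 array per sample. The authors summarized the scans with RMA in Expression Console, and the deposited values are log2 signals per probe set, background-corrected and quantile-normalized. Of 35556 probe sets, 21789 carried 1 gene symbol in the platform annotation, 1621 several and 12146 none listed here. The brightest probe set stood for each of 19938 genes. Differences were fitted over all genes and all 4 groups with limma 3.58.1 in R 4.3.3 (8 residual degrees of freedom, empirical Bayes) with Benjamini-Hochberg adjustment. Ratios were tested by exact permutation in scipy 1.17.1. The number of arrays limits precision. Named members were the catalytic subunits, Psme1, Psme2, up to 6 called genes in each direction per comparison and otherwise the 4 nearest, and from other lists up to 4 called genes with the largest difference, and the 5 genes most like the mean of Psmb8, Psmb9 and Psmb10. Members, rules and lists were chosen with earlier results of these data known. Members named outside this rule, such as Psme3 and Psmd12, were chosen after their values were seen. The study names no pairing, and same-numbered arrays deviated from their group means with correlations from -0.096 to 0.161 (median -0.006), so numbers were not taken as pairs. The fit was tested on simulated data. Promoters came from RefSeq.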

Additional observations from a re-analysis of the deposited data

Results flagged for a closer look

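By the interaction term, 4 of the 48 genes were called higher in diaphragm and 5 lower, beside 8.76% and 6.07% of all genes. The share of higher genes did not exceed the background. The KO minus WT difference departed between the muscles for 9 named members: Psmb9 by 1.34, Psmb8 by 1.28, Psme1 by 0.77 and Psmb10 by 0.52 were higher in diaphragm on the log2 scale, and Psme4 by -0.84, Psmd8 by -0.64, Psmd4 by -0.55, Psma3 by -0.54 and Psmd1 by -0.48 were lower. These 9 differences all rest on the WT-labelled diaphragm arrays, whose position genes were those of hindlimb muscle, so that genotype and muscle cannot be told apart in them. In a probe set that carries the symbols of both Psme2 and its copy Psme2b, and was left out of the comparisons, the signal was 7.29 ± 0.33 in KO diaphragm and 6.46 ± 0.21 on the WT-labelled diaphragm arrays (SD, n = 3), 0.84 higher.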

How the results depend on the processing

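Settings were changed singly. No result changed its sign together with its call. In gastrocnemius the proteasome genes called higher rose from 0 to 1 with a trended robust fit or the mean of all probe sets, to 2 with median centring or without genes under the median signal, and to 5 higher and 1 lower by the methods' t-test at unadjusted p. In diaphragm that test with Benjamini-Hochberg adjustment called 1 higher and 8 lower, in place of 6 and 13, and between the KO muscles 1 higher in place of 6. Median centring called 31 lower between the KO muscles and 10 lower by the interaction, and it moved the median of all genes down in both. Calls over all genes were not counted in the changed settings, so these counts have no background beside them. Between the WT groups, 1 gene was lower after quantile normalization or without dim genes, and 2 by the t-test unadjusted. Leaving out 1 array, the interaction called 1 to 6 genes lower. Of the counts, 150 settings stayed within 1.5 times the main count and 20 did not. All 96 settings of the ratios moved them by less than the spread between arrays. With the replicate number as a block, 6 genes were higher and 13 lower in diaphragm, and 6 and 17 between the KO muscles; no count changed by over 1.5 times. The fit without the WT-labelled diaphragm arrays called 6 higher and 19 lower between the KO muscles and none in gastrocnemius. The 3 arrays per group limit what single genes can show.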
